A study of Mus musculus with 12 samples.

Results

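Genes of chromatin remodelers, bromodomain proteins and histone deacetylases were examined in mouse 2-cell embryos. They were chosen by symbol: the Smarca to Smarce, Arid, Chd, Ino80, Brd, Baz and Hdac families. The pattern matched 63 of 20244 genes listed in either of 2 deposited tables, and 61 of them were listed in both. Smarca1 was in neither table, and Hdac7 and Hdac11 were listed only in the immunoprecipitation table.

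Chromatin remodelers use ATP to slide, evict or exchange nucleosomes, and the SWI/SNF, ISWI, CHD and INO80 families differ in their catalytic subunit and partners. Bromodomains bind acetylated lysines, many of them on histones, and histone deacetylases remove those acetyl groups. In the early mouse embryo these proteins act while maternal RNA is replaced and the embryo's own genome starts to be transcribed, and maternal SMARCA4 is known to be needed for development past the 2-cell stage.

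The series addressed the role of Eif1ad3, a gene named as a relative of the translation initiation factor Eif1a, around that transition. In the knockdown experiment, control and knockdown 2-cell embryos were compared (groups labelled WT and Eif1ad3_KD, 2 libraries each, replicates A and B). The design text gives both groups RfxCas13d mRNA, encoding an RNA-cutting enzyme, in 1-cell embryos from CF1 mice, with a guide RNA added in the knockdown. The samples' protocol instead names oocytes given control or Eif1ad3 morpholino oligos with Cas13d protein. RIP-seq, which sequences the RNA that comes down with a protein, made up the other experiment, and its 4 libraries used here were all labelled Eif1ad3_OE. Zygotes had been injected with 200 ng/uL of synthetic mRNA coding for Eif1ad3 with a His tag. Lysates of 2-cell embryos, 200 cells per replicate, then met beads with anti-His antibody (the His group) or control IgG, again in replicates A and B. Tagged protein made from that mRNA is not the embryo's own Eif1ad3, and the strain used for it is not stated. Nothing in the labels says that replicates came from separate pools of embryos, so p-values measure only the spread between these libraries.

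Values are CPM, a gene's reads scaled to a common library total. The totals ran from 18173916 to 27902514 reads for knockdown and control embryos and from 4678563 to 8364126 for the pulldowns. Eif1ad3 itself was at 839 and 663 CPM in controls A and B and at 277 and 377 CPM in knockdown A and B. All 7 markers of the 2-cell stage were at 1 CPM or more in the 4 knockdown-experiment libraries, where they summed to 3316 and 3322 CPM in controls A and B and to 2425 and 2821 CPM in knockdown A and B. Their median log2 difference from the control mean was -0.50 in knockdown A and -0.15 in knockdown B. Of 10 cumulus and granulosa cell markers, 5 were listed there, with a sum of 7.68 to 15.1 CPM. The knockdown libraries stood apart from each other: 12 oocyte and maternal RNA markers had a median log2 difference from the control mean of 1.24 in knockdown A and -1.07 in knockdown B. Their sum was 14605 CPM in A, but in B, at 6848 CPM, it lay between the controls' 7045 and 6824 CPM, with Bmp15 and Oosp1 above both controls there. The IgG libraries also stood apart: the 2-cell markers summed to 1.86 CPM in IgG A, where 3 of 7 were at 0, against 449 CPM in IgG B, 220 in His A and 236 in His B. Most of the IgG B sum was 1 gene, Usp17la, at 421 CPM there, 0.338 CPM in IgG A and 121 and 130 CPM in His. The 12 oocyte and maternal RNA markers summed to 5045 CPM in IgG A and 6645 CPM in IgG B, with 10 at 1 CPM or more in each. In His A and B they summed to 11737 and 12045 CPM.

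The deepest view of these genes came from the embryos themselves. In control libraries A and B, 42 of the 61 listed genes were at 10 CPM or more in each, as were 41 in each knockdown library. The 61 genes together held between 82220 reads (knockdown B) and 125060 reads (control B). Smarcd3 lay at the limit of detection, with 0 and 28 reads in controls A and B and 3 reads in each knockdown library. Genes at 1 CPM or more in at least 2 of the 4 libraries were tested with limma on log2(CPM + 1), which left out Smarcd3 and Brd3os, a transcript antisense to Brd3, and kept 59. All differences are on that log2 scale.

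No remodeler, bromodomain or deacetylase gene passed an adjusted p of 0.05 between knockdown and control embryos, against 0 of 13332 genes tested (0.0%). The smallest adjusted p among the 59 was 0.859 in limma. Unadjusted p was under 0.05 for 6 of the 59, all with a lower mean in knockdown (Hdac1, Hdac6, Arid5a, Brd2, Brd8dc and Smarca4), against 5.45% of all genes in either direction. The count tests gave 0 of these genes as well, in edgeR, which called 0 genes in all, and in DESeq2, which called 15 genes (0.113%). Without knockdown A, when the lone knockdown library is assumed to vary like the controls, 8 of 59 passed (Arid2 higher; Arid5a, Baz2a, Brd2, Chd4, Hdac1, Hdac6 and Smarca4 lower), against 15.1% of all genes. Without knockdown B, 3 passed (Brd9, Hdac1 and Smarca5, all lower), against 3.23% of all genes. Without control A or control B, 0 passed. Of the 59, Hdac1 alone was named both without knockdown A and without knockdown B, with log2 differences of -1.32 and -1.04.

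Across the 59 genes the knockdown mean was lower for 35 (59.3%) and higher for 24, against 48.7% lower over all genes tested. Their median log2 difference was -0.17, beside 0.02 over all genes. By library it was -0.12 in knockdown A, beside 0.14 over all genes, and -0.15 in knockdown B, beside -0.17 over all genes. The median of these genes was thus below that of all genes in knockdown A but not in knockdown B. Both knockdown libraries lay below both controls for 16 of the 59 (27.1%), against 18.4% of all genes. Both lay above both controls for 9 (15.3%), against 18.1%. Among the 42 genes with a control mean of at least 10 CPM, 13 had both knockdown libraries lower (31.0%), against 23.8% of 7263 such genes, and 4 had both higher, against 15.1%. The other arrangements showed the disagreement between the knockdown libraries: 10 genes were above both controls in A and below both in B (19.1% of all genes), and 6 the reverse (8.21%). The median gap between replicates was 0.52 log2 units in knockdown and 0.27 in control embryos for these genes, beside 0.69 and 0.34 over all genes. By their medians, the 12 oocyte markers were higher in knockdown A and lower in B, and the 2-cell markers were lower in both, though single markers went the other way in each list. The part of either list in these differences was not tested. In bulk RNA of pooled embryos, fewer cells with a transcript and less transcript per cell cannot be told apart.

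**Figure D1:**
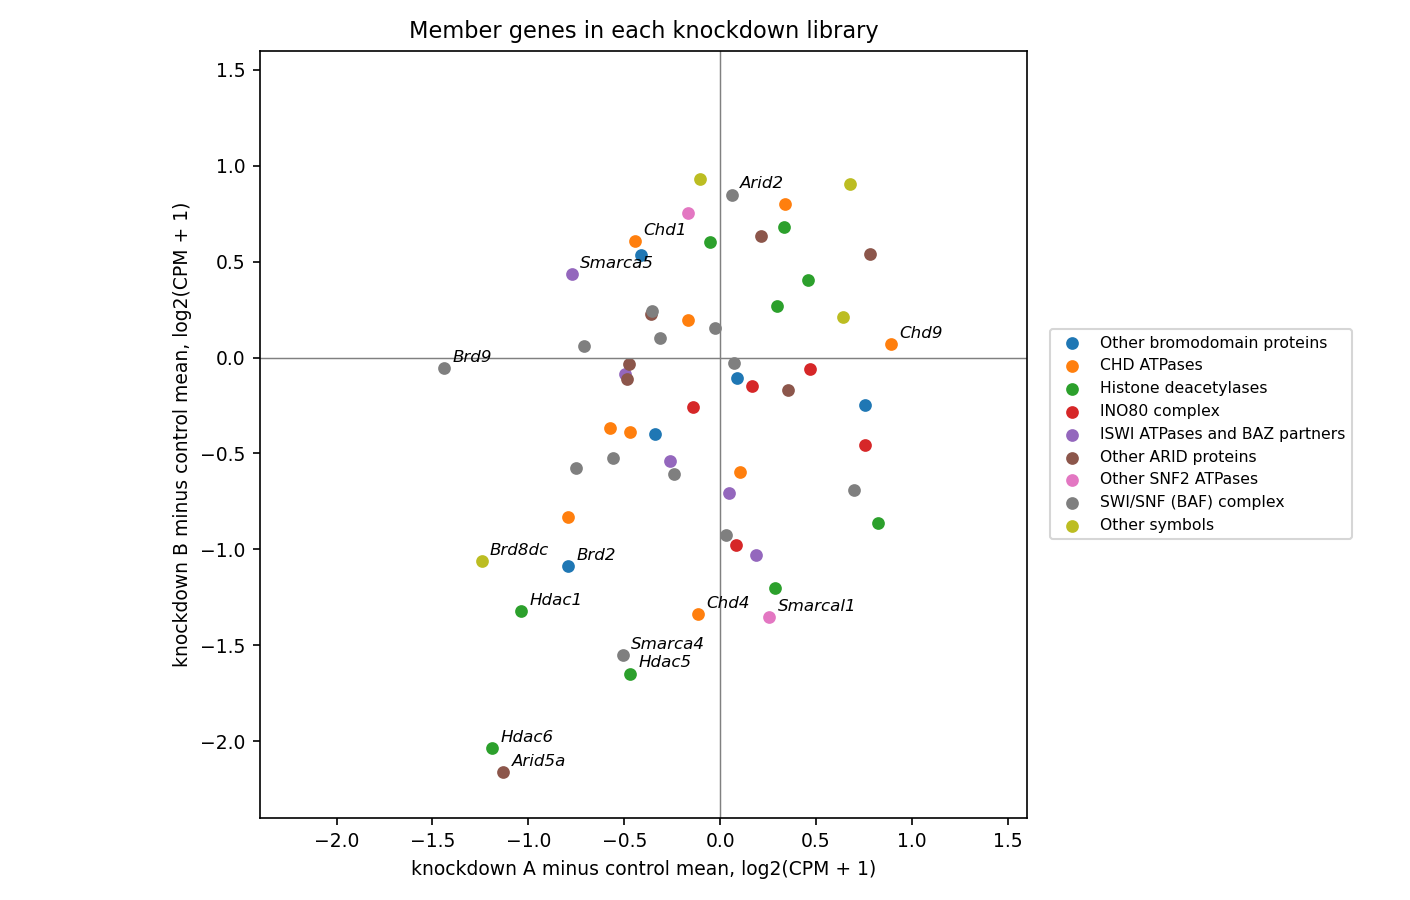
Log2 difference of each tested gene from the control mean in knockdown A (horizontal axis) and knockdown B (vertical axis), on the log2(CPM + 1) scale, with 1 point per gene coloured by role. Hdac1, Hdac6, Arid5a, Brd2 and Brd8dc sit far into the lower left, where both libraries are lower, while Smarca5 and Chd1 are lower in A and higher in B.

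Among histone deacetylases, and among all 59 genes, the smallest unadjusted p belonged to Hdac1, a class I enzyme found in the NuRD, Sin3 and CoREST complexes. Hdac1 was at 358 and 475 CPM in controls A and B and at 200 and 164 CPM in knockdown A and B. The ranges did not overlap, and the knockdown mean was 43.8% of the control mean (log2 difference -1.18, SE 0.33; unadjusted p 0.00716, adjusted p 0.859 in limma). Hdac2, its close paralog in the same complexes, was at 118 and 134 CPM in controls and 155 and 152 CPM in knockdown, with both knockdown libraries above both controls (log2 difference 0.28, SE 0.33; limma adjusted p 0.923). The ratio of Hdac1 to Hdac2 reads, which cancels any scaling of the library, was 3.03 and 3.54 in controls A and B and 1.29 and 1.08 in knockdown A and B.

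Hdac6, a mostly cytoplasmic deacetylase of tubulin, was at 51.5 and 63.7 CPM in controls and 24.6 and 13.2 CPM in knockdown. Its groups did not overlap, with a knockdown mean at 32.8% of control (log2 difference -1.61, SE 0.46; unadjusted p 0.00764, adjusted p 0.859 in limma). Hdac3, the enzyme of the NCoR corepressor complex, was at 2.36 and 2.09 CPM in controls and 4.69 and 0.770 CPM in knockdown A and B. Knockdown A was above and knockdown B below both controls, and its difference changed sign with a pseudocount of 5, in edgeR and in DESeq2. Hdac9, a class IIa deacetylase, was at 15.6 and 11.0 CPM in controls and 16.8 and 21.6 CPM in knockdown, so both knockdown libraries were higher. Of the 9 deacetylase genes tested, 3 had both knockdown libraries lower (Hdac1, Hdac5 and Hdac6), 3 had both higher (Hdac2, Hdac9 and Hdac10), against 18.4% and 18.1% of all genes, and the median difference was -0.02.

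The DNA just before the start of Hdac6 and Hdac2, a pair of deacetylase genes whose values lay on opposite sides of control, is shown from RefSeq (GRCm38.p6), with each CG dinucleotide in capitals. The stretches are the last 100 bases before the start, 5′ to 3′ on the gene's own strand, at chrX:7947890-7947989 (minus strand) for Hdac6 and chr10:36974444-36974543 (plus strand) for Hdac2.
Hdac6: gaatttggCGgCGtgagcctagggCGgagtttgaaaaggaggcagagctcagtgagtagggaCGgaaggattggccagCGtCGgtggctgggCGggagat
Hdac2: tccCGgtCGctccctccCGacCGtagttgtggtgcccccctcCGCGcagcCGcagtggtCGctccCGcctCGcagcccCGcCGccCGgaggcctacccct
Hdac6 held 7 CG, a count that 30.1% of all 32851 promoter windows reached or passed. Hdac2 held 13, which 9.45% reached or passed. Hdac1 had no promoter window.

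Within the SWI/SNF complex, also called BAF, the ATPase gene Smarca4 (encoding BRG1) was at 77.3 and 87.8 CPM in controls A and B and 57.6 and 27.4 CPM in knockdown A and B. Both knockdown libraries were below both controls, with a mean at 51.5% of control (log2 difference -1.03, SE 0.45; unadjusted p 0.050, adjusted p 0.859 in limma). Smarca2 encodes the alternative ATPase, BRM, and was at 326 and 296 CPM in controls and 305 and 347 CPM in knockdown, with overlapping groups (0.06). The ratio of Smarca4 to Smarca2 reads was 0.237 and 0.296 in controls and 0.189 and 0.0790 in knockdown.

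Core and accessory subunits of the complex gave a mixed picture. Smarcc1 and Smarcc2, which encode the paired scaffold subunits, both had both knockdown libraries lower, Smarcc1 at 105 and 136 CPM in controls against 80.9 and 82.8 CPM in knockdown. Brd7, a bromodomain subunit of the PBAF form, was at 168 and 142 CPM in controls and 130 and 101 CPM in knockdown, and the groups did not overlap. The next subunits did not share this arrangement. Arid2, another PBAF subunit, was at 107 and 89.7 CPM in controls and 102 and 178 CPM in knockdown, overlapping and with knockdown B alone above both controls. Brd9, of the non-canonical BAF form, was at 65.0 and 45.5 CPM in controls and 19.4 and 52.3 CPM in knockdown, so that knockdown A alone was low. Over 13 SWI/SNF genes tested, 9 had a lower mean (48.7% of all genes), 4 had both knockdown libraries lower (18.4%), 0 had both higher (18.1%), and the median difference was -0.32. Smarcc1, Smarcc2, Brd7 and Brd9 are named here after their values were seen.

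The promoters of the alternative ATPase genes are shown because Smarca4 and Smarca2 exchange for each other in the complex and the ratio of their reads was lower in both knockdown libraries. Each line holds the last 100 bases before the start on the plus strand in GRCm38.p6, with CG in capitals, at chr9:21616069-21616168 for Smarca4 and chr19:26605060-26605159 for Smarca2.
Smarca4: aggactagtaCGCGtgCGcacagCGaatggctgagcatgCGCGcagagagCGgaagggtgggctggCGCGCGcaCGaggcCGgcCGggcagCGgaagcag
Smarca2: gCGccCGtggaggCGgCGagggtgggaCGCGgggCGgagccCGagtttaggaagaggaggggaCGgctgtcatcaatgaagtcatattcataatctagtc
Smarca4 held 14 CG, a count reached by 7.16% of all windows, and Smarca2 held 9, reached by 22.2%. Among windows of the genes studied, 44 of which had an entry (59 windows), the median was 8 CG in these bases, beside 3 over all windows. The letters GGGCGG, a GC box, were found on either strand in 72.9% of their full windows and in 35.7% of all. TATAAA was found in 8.47% of their windows and in 13.6% of all, CCAAT in 30.5% and 37.4%, and GGATTA, a motif of homeodomain factors, in 3.39% and 7.06%. These matches describe letters only. The windows come from 27025 genes, whether or not these were detected in the embryos, so the shares are not matched for expression.

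The ISWI ATPase gene Smarca5 (SNF2H) was at 604 and 609 CPM in controls. It was at 354 and 821 CPM in knockdown A and B, with A below and B above both controls, and the mean difference of -0.17 describes neither. Baz1a, which encodes the ACF1 partner of SNF2H, was at 477 and 447 CPM in controls and 327 and 436 CPM in knockdown, both lower. Smarca5-ps, a pseudogene copy, was at 13.6 and 13.2 CPM in controls and 12.4 and 26.5 CPM in knockdown, the same arrangement as Smarca5. How reads were shared out among such near-identical copies is not given in the sources used here, so values of the pseudogenes Smarca5-ps and Smarce1-ps1 are uncertain. All 5 ISWI and BAZ genes tested had a lower knockdown mean, against 48.7% of all genes, with differences from -0.42 to -0.17. The difference of Smarca5 turned to 0.033 in edgeR and 0.053 in DESeq2. Only Baz1a of the 5 had both libraries below both controls, against 18.4% of all genes.

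Among CHD ATPases, Chd1, which binds methylated H3 tails at active genes, was at 169 and 218 CPM in controls and 141 and 293 CPM in knockdown A and B. As for Smarca5, A was lower and B higher than both controls. Chd4, the NuRD ATPase, was at 44.5 and 50.8 CPM in controls and 43.8 and 18.2 CPM in knockdown, so most of its mean difference of -0.73 came from knockdown B. Chd9 was at 45.3 and 44.5 CPM in controls and 84.2 and 47.2 CPM in knockdown, both higher, with most of the difference in A. Of 9 CHD genes, 4 had both knockdown libraries lower (Chd3, Chd4, Chd7 and Chd8) and 2 had both higher (Chd2 and Chd9), against 18.4% and 18.1% of all genes, with a median of -0.25.

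INO80 genes showed no shared direction. Ino80, the ATPase, was at 24.6 and 53.9 CPM in controls and 33.0 and 30.3 CPM in knockdown, with both knockdown values inside the control range. Of the 5 INO80 genes tested, 0 had knockdown libraries that were both outside the control range on one side, against 18.4% of all genes on the lower side and 18.1% on the higher, and the median difference was 0.01. Ino80dos, an antisense transcript of Ino80d, was at 1.76 and 3.09 CPM in controls and 4.37 and 5.28 CPM in knockdown. The labels do not state whether counting used strand, so reads of Ino80d and Ino80dos, or of Brd3 and Brd3os, may not be told apart. Smarcad1, a remodeler outside these families, was at 95.0 and 116 CPM in controls and 93.4 and 178 CPM in knockdown, again lower in A and higher in B.

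Among bromodomain readers outside the remodeler complexes, Brd2, a BET protein that binds acetylated histones, was at 170 and 160 CPM in controls and 95.0 and 77.4 CPM in knockdown, with no overlap and a mean at 52.1% of control (log2 difference -0.94, SE 0.34; unadjusted p 0.0238, adjusted p 0.859 in limma). Brd8dc, listed under its own symbol beside Brd8, was at 16.7 and 14.3 CPM in controls and 5.95 and 6.88 CPM in knockdown.

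Among ARID proteins outside SWI/SNF, Arid5a, an RNA- and DNA-binding protein known for stabilising cytokine transcripts, was at 50.3 and 111 CPM in controls and 33.7 and 16.0 CPM in knockdown. Both knockdown values were below both controls, though the controls themselves differed widely, and the mean was 30.7% of control (log2 difference -1.65, SE 0.54; unadjusted p 0.0153, adjusted p 0.859 in limma). Arid4a, a retinoblastoma-binding component of Sin3 complexes, was at 131 and 127 CPM in controls and 150 and 201 CPM in knockdown, both higher. The read ratios were computed for 7 pairs of related genes, chosen after values were seen, and both knockdown ratios lay on the same side of both control ratios for 4. Besides Hdac1 to Hdac2 and Smarca4 to Smarca2, these were Arid1a to Arid1b, at 3.64 and 4.67 in controls and 3.23 and 3.61 in knockdown, and Smarca5 to Smarca5-ps, at 44.5 and 46.1 against 28.7 and 31.0. The ratios are given as values with no test, and no share over other gene pairs was computed to set beside the 4.

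**Figure D2:**
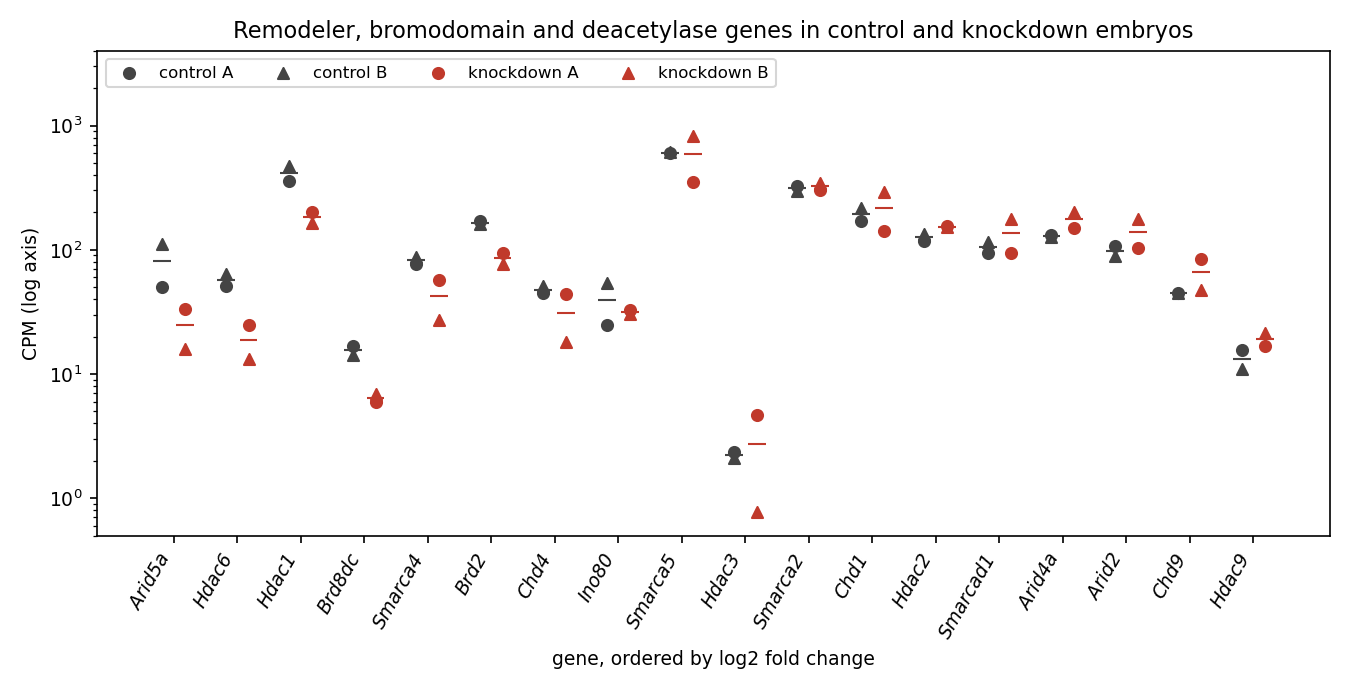
CPM (log axis) of the genes given library by library, ordered by log2 fold change, in control (grey) and knockdown (red) embryos, with circles for replicate A, triangles for B and short lines for group means. Grey and red points separate for Arid5a, Hdac6, Hdac1, Brd8dc, Smarca4 and Brd2, while the red points of Smarca5, Hdac3 and Chd1 lie on both sides of the grey ones.

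Genes of the same complexes that the symbol pattern does not cover were counted as a further list. Of 58 such genes listed, 56 were tested, 0 passed, and 18 had both knockdown libraries lower (32.1%, against 18.4% of all genes) while 5 had both higher (8.93%, against 18.1%). Their median difference was -0.16, beside 0.02 over all genes. In the separate libraries it was -0.07 in knockdown A, beside 0.14 over all genes, and -0.44 in knockdown B, beside -0.17. The only one of them with an unadjusted p under 0.05 was Rcor3, a CoREST corepressor, at 3.68 and 3.09 CPM in controls and 0.645 and 0.715 CPM in knockdown (limma p 0.0323, adjusted p 0.859).

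Recovery of these transcripts with His-tagged Eif1ad3 was compared with recovery on IgG beads. Of 63 genes listed, 56 passed the same filter. In the IgG libraries 20 of the 63 had 0 reads in both (14 of the 56 tested, against 28.2% of all genes tested), and 26 and 28 had 0 reads in IgG A and B, which allows levels of up to 0.506 and 0.641 CPM (3 reads, counting error only). In each His library 3 were at 0. A total of 14 of 56 (25%) were higher in His at an adjusted p under 0.05 in limma, against 35.7% of 11232 genes tested, and 0 were lower, against 0.917%. The share called in limma was thus below that over all genes, a gap that was not tested.

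The call depended strongly on the IgG libraries and on the method. Of the 14 genes, 11 had 0 reads in both IgG libraries, a property shared by 67.2% of all 4008 genes called higher, and 7 reached 10 CPM in both His libraries. With Hdac3 and Smarce1, 13 of the 14 were under 1 CPM in both IgG libraries, as were 90.9% of all genes called higher, and so passed the filter on low values only through His. Their values are given without p-values and their calls as a description. The edgeR count test called 0 of 56 (smallest adjusted p 0.0547; 19 with an unadjusted p under 0.05), and quantile normalization called 0 (13 unadjusted), as both did over all genes (0.0%). DESeq2 called 27 (48.2%, against 49.1% of all genes), 18 higher and 9 lower. Without His A or without His B, 0 passed, against 0.0889% and 0.0888% of all genes, when a gene needs reads in an IgG library to pass the filter. Without IgG A 37 passed and without IgG B 36, against 69.1% and 70.0% of all genes; the spread then comes from the His pair alone, and the lone IgG library is assumed to vary like it, although the IgG libraries differed more.

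Of 9 deacetylase genes tested, 4 were among the 14 called, where 35.7% of all genes were. Hdac6 was at 99.8 and 51.2 CPM in His A and B and at 0 and 1.71 CPM in IgG A and B (log2 difference 5.46, SE 0.90; limma adjusted p 0.0220). That call was lost with a pseudocount of 0.1 (limma adjusted p 0.0644), with the replicate letter as a block (0.0544), with quantile normalization (0.194) and in edgeR (0.147). Hdac3 was at 19.1 and 27.4 CPM in His and 0 and 0.855 CPM in IgG (log2 difference 4.13). In both genes each His library was far above each IgG library. Hdac7 and Hdac9 also passed from low levels, at least 9.99-fold and at least 4.86-fold higher, where the bound sets the mean His CPM against 3 reads in each IgG library (mean 0.574 CPM). Hdac8, a class I enzyme, was at 44.8 and 28.9 CPM in His and 3.38 and 0 CPM in IgG and did not pass (limma adjusted p 0.0547), though it did with a pseudocount of 5 (0.0390) and, with the spread from the His pair alone, without either IgG library.

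Of 6 ARID genes tested outside SWI/SNF, the 3 that passed were the ARID3 genes, which encode A/T-rich DNA-binding factors, where 35.7% of all genes passed. All 3 had 0 reads in both IgG libraries. Arid3b was at 38.3 and 49.4 CPM in His and had 0 reads in both IgG libraries, at least 76.4-fold higher. Arid3c and Arid3a were at least 31.5-fold and at least 13.9-fold higher on the same bound. Of the other ATPases, Smarcal1, an annealing helicase of stalled replication forks, was at 18.8 and 45.6 CPM in His and 0 in both IgG libraries, at least 56.1-fold higher. Ino80 was at 26.5 and 11.1 CPM in His and 0 in IgG, at least 32.8-fold higher. The remaining calls were Chd3 and Chd2, at least 22.7-fold and 8.15-fold higher, and the SWI/SNF subunit genes Smarcc2, Smarcd1 and Smarce1. Smarcc2 and Smarcd1 were at least 11.9-fold and at least 6.40-fold higher, and Smarce1 was at 4.42 and 15.3 CPM in His and 0.338 and 0 CPM in IgG.

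The ATPase genes of SWI/SNF and ISWI did not pass the threshold. Smarca4 was at 83.7 and 68.6 CPM in His and 30.9 and 62.6 CPM in IgG, higher in both His libraries. Smarca2 was at 23.1 and 30.8 CPM in His and 19.9 and 24.8 CPM in IgG, with overlapping groups. Smarca5, at 24.4 and 23.9 CPM in His, was below both IgG libraries (39.0 and 29.3 CPM).

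For the NuRD ATPase gene and a BET reader the His values lay inside a wide IgG range. Chd4 was at 125 and 96.0 CPM in His and 83.9 and 259 CPM in IgG. Brd2 was at 399 and 502 CPM in His and 301 and 622 CPM in IgG, again inside the IgG range.

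Hdac2, the paralog of Hdac1, was at 9.09 and 11.7 CPM in His and 12.0 and 0 CPM in IgG, and the empty IgG B set the sign of its difference. Chd1 was at 7.65 and 16.4 CPM in His, below both IgG libraries at 25.7 and 45.1 CPM, and Smarcad1 was likewise lower, at 7.53 and 9.98 against 20.6 and 12.8 CPM.

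A set of these genes lay below IgG in both His libraries. Both His libraries were lower for 12 of 56 (21.4%), against 9.06% of all genes, and both were higher for 28, against 54.1%. Among the 29 genes with reads in both IgG libraries, 12 were lower in both His libraries (41.4%), against 22.1% of 4606 such genes. Hdac1 was at 124 and 95.7 CPM in His and 460 and 350 CPM in IgG (log2 difference -1.87, SE 0.47; limma adjusted p 0.0595). Ino80c, a small INO80 subunit, was at 9.33 and 13.1 CPM in His and 112 and 117 CPM in IgG (-3.25, SE 0.84; limma adjusted p 0.0637). Neither passed in that test, but the call turned on the setting. Hdac1 passed with a pseudocount of 0.1 (limma adjusted p 0.0440), and Ino80c passed with a pseudocount of 5 (0.0452) and without the mean-variance trend (0.0195). DESeq2 called both lower (adjusted p 0.000212 and 4.62e-07), limma called both when either IgG library was left out, with the spread from the His pair alone, and edgeR called neither (0.113 and 0.120).

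Further genes had the same arrangement. Hdac5, a class IIa deacetylase, was at 9.45 and 5.18 CPM in His and 371 and 85.9 CPM in IgG (-4.48, SE 1.19; limma adjusted p 0.0671). Brd8, a bromodomain subunit of the NuA4 acetyltransferase complex, was at 40.4 CPM in both His libraries and at 171 and 205 CPM in IgG (-2.19, SE 0.69; limma adjusted p 0.0985). Smarcd2, a SWI/SNF subunit, was at 631 and 829 CPM in His and 2999.7 and 1232 CPM in IgG, and in IgG A it alone held 46.3% of the summed CPM of the 63 genes. With all 4 libraries and the settings described, none of the 12 passed in limma. The 12 were picked for lying below IgG in both His libraries, so counts of calls among them are a description. DESeq2 called 747 of all 11232 genes lower. Without the mean-variance trend Brd8 passed (limma adjusted p 0.0314), DESeq2 called 9 of the 12 lower, Hdac5, Brd8 and Smarcd2 among them (adjusted p 2.26e-05, 2.31e-06 and 0.00486), and edgeR called 0. Leaving out either IgG library, under the same assumption on spread, also called these 3.

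The median log2 difference over the 56 genes was 1.77, beside 2.01 over all genes tested. With genes absent from both IgG libraries set at their bound, the medians were 1.93 and 2.14. Among genes with reads in both IgG libraries the medians were 0.05 over 29 of these genes and 0.39 over all such genes. By role, medians ran from 0.80 for INO80 genes to 3.19 for ARID proteins outside SWI/SNF.

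**Figure D3:**
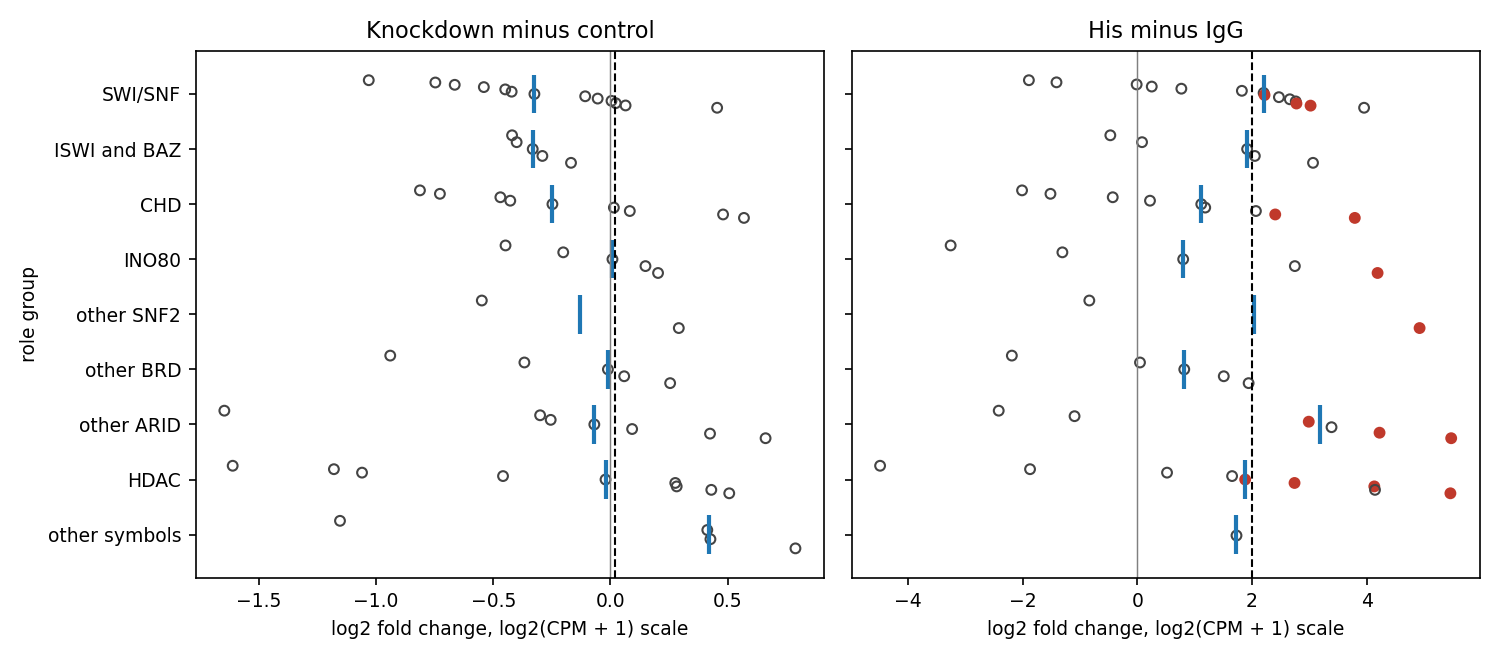
Log2 fold change of each tested gene by role group, knockdown minus control (left) and His minus IgG (right), on the log2(CPM + 1) scale, with filled red points for genes at an adjusted p under 0.05, blue bars for group medians and a dashed line for the median of all genes tested. No point is filled on the left, where the ISWI and BAZ genes all lie below 0, and the 14 filled points on the right are all above 0.

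Agreement between replicates differed by kind of bead. Of 34 of these genes at 10 CPM or more in either IgG library, 7 had 3 reads or fewer in the other (20.6%), against 43.2% of all listed genes. In His this held for 1 of 47 (2.13%), against 2.62%. Arid1b, which encodes a BAF subunit, was at 363 CPM in IgG A and 1.28 CPM in IgG B, and at 184 and 137 CPM in His. Smarcb1, the core subunit SNF5, showed the reverse, at 0.338 and 276 CPM in IgG and 127 and 132 CPM in His. Arid1b and Smarcb1 were chosen after their values were seen. The part of this disagreement, and of the near-empty 2-cell markers of IgG A, in the His and IgG differences was not tested.

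**Figure D4:**
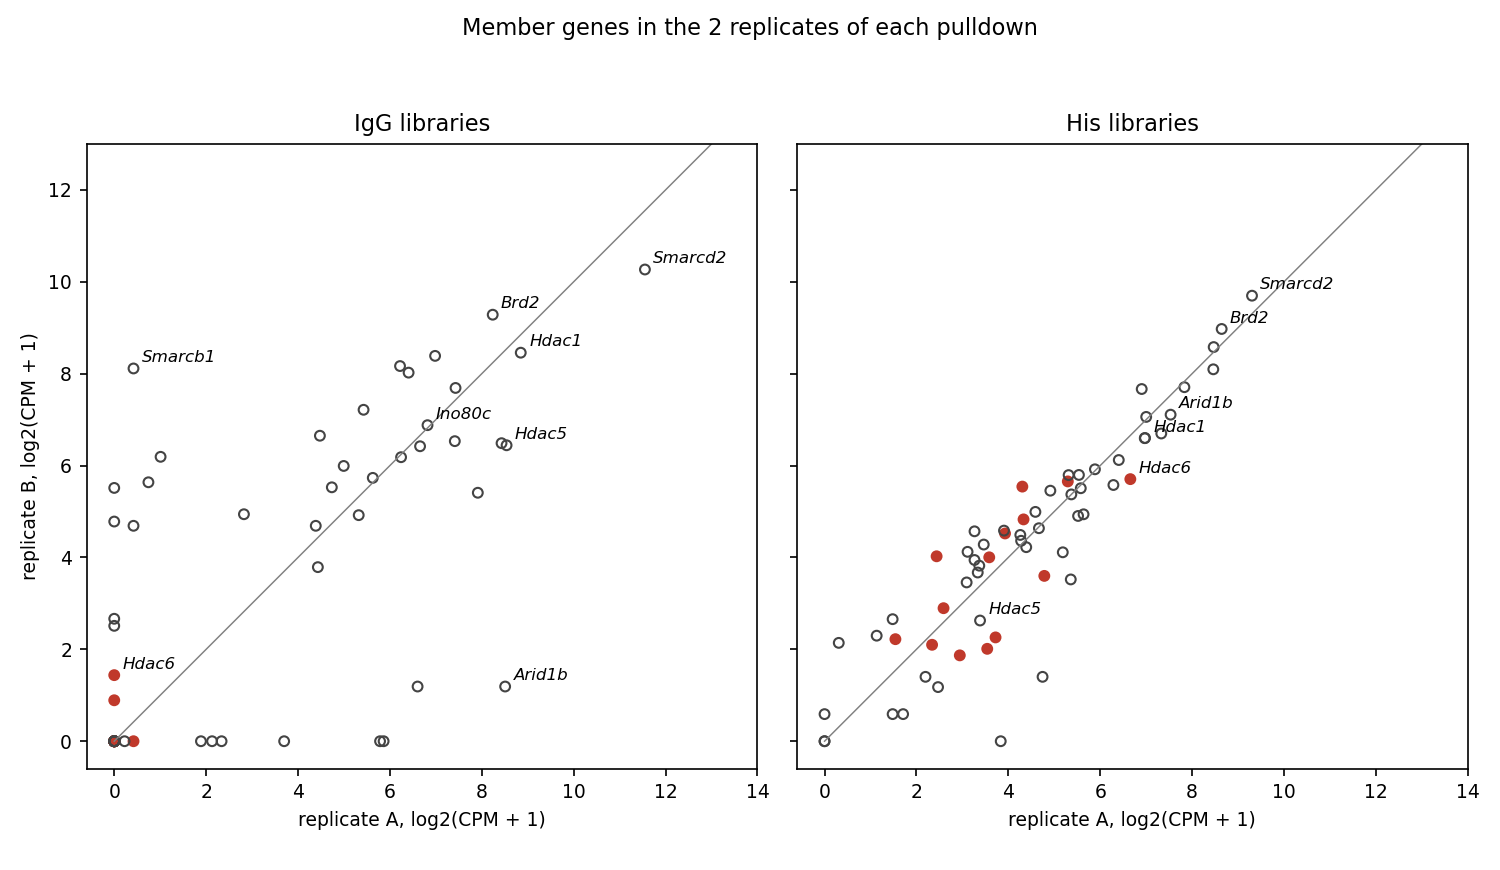
Replicate B against replicate A for each gene in IgG (left) and His (right) libraries, both axes log2(CPM + 1), with the line of equality and filled red points for the 14 genes higher in His. Points follow the line in His, whereas in IgG several genes, such as Smarcb1 and Arid1b, are high in 1 library and near 0 in the other.

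Of the partner genes outside the symbol pattern, 55 were tested and 10 were higher in His at an adjusted p under 0.05 in limma (18.2%, against 35.7% of all genes), and 0 were lower. Both His libraries lay below both IgG libraries for 5 of the 55 (9.09%), against 9.06% of all genes. Both lay above for 23 (41.8%), against 54.1%. Of the 10, 7 were under 1 CPM in both IgG libraries and passed the filter only through His, so the count is a description. The 10 called included Rbbp7, a histone-binding subunit of NuRD and Sin3 complexes, at 839 and 858 CPM in His and 73.2 and 147 CPM in IgG. Sap130, a Sin3 subunit, was at 175 and 153 CPM in His and 11.8 and 12.6 CPM in IgG. Actl6a, an actin-related BAF subunit, was at 53.1 and 31.8 CPM in His and 0 and 0.214 CPM in IgG.

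Levels in pulldowns were set beside those in control embryos, as a description only, because the 2 tables were normalized separately. Over the 61 genes in both tables, Spearman's rho of the mean control CPM was 0.54 with the His mean and 0.64 with the IgG mean. Over 17012 shared genes it was 0.73 with His and 0.56 with IgG. Smarcd2 was at 46.9 and 58.6 CPM in controls, below its values in every pulldown library, and Smarca5 was above its values in every pulldown library. Points share the gene's length and the same library chemistry.

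Between the experiments, which share no samples, Hdac6 had lower values in both knockdown libraries, not past the threshold, and a call in His that did not hold under every setting. Arid5a, lower in both knockdown libraries, was at 119 and 202 CPM in His and 96.2 and 1.28 CPM in IgG and was not called. Hdac1, Hdac5, Brd8 and Chd8 had both knockdown libraries below both controls and both His libraries below both IgG libraries. These are 4 of 54 genes tested in both experiments (7.41%), against 2.55% of all genes tested in both, and make up 4 of the 16 lower in knockdown and 4 of the 12 lower in His. On log2(CPM + 1) with the trend and all 4 libraries, none of the 4 passed in limma in either comparison, whereas in His against IgG Hdac1 passed with a pseudocount of 0.1 and Brd8 without the trend.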

How the data were processed

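RNA was sequenced from 8 libraries used here. The authors deposited CPM, each gene's reads scaled to a common library total. The submitters' processing notes list Trim Galore 0.6.7, FastQC, HISAT2 2.2.1, featureCounts 2.0.1, edgeR and GRCm39, with no settings. A Smart-seq2 kit and Nextera XT were used, per the labels' protocols; PCR reads without molecular identifiers are not independent molecules, so floors cover counting error only. In each library 100% of CPM values came out as whole reads (tolerance 0.01), which gave the read totals. Column names did not decide the sample of 4 further value columns, which were not used here, so His was not compared with input.

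The members, role groups, partner genes and markers were chosen with earlier results of these data known. Each comparison kept genes that reached 1 CPM in 2 of its libraries or more, and these were fitted with limma 3.58.1 in R 4.3.3 (lmFit, eBayes with trend, two-sided) on log2(CPM + 1), computed from the deposited CPM, with 2 residual degrees of freedom, Benjamini-Hochberg adjustment over all genes tested and a threshold of 0.05. The scale understates changes of low genes. Values in every library are given for a list of catalytic and reader genes named by choice, 1 of which is not reported here, and, per comparison, the 5 with the smallest p in each direction at a mean of at least 10 CPM; other names were chosen after their values were seen. Alternatives were other pseudocounts, filters and scalings, no trend, a replicate block, leaving out each library, and count tests on the recovered reads by edgeR 4.0.16 and DESeq2 1.42.0, which called 0 and 15 genes in the knockdown and 0 and 5513 in the pulldown. The tests were tested on simulated data. Promoter sequences are RefSeq's, with its own build. Of the genes studied, 0 had the same reads as another gene throughout. Transcript lengths were not used, so levels of different genes are not compared per length.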

Additional observations from a re-analysis of the deposited data

How the results depend on the processing

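With 2 libraries per group, single calls rest on little replication. For His against IgG, 14 genes were called, but 7 when a mean of 5 CPM was required, 0 with quantile normalization, 0 in edgeR and 27 in DESeq2, and leaving out 1 library gave 0 to 37. Its median of 1.77 became 2.76 with a pseudocount of 0.1, 0.74 with 5, 0.58 in edgeR, 0.33 in DESeq2 and -0.25 with quantile normalization, where the median of all genes was -0.08; leaving out 1 library gave 0.47 to 1.72. Without a His library the filter removes genes absent from IgG; the cause of the other changes was not tested. Quantile normalization turned Smarca2 to -1.84 and Hdac2 to -1.36, and DESeq2 turned Smarca2 to -0.048. For knockdown against control, 0 genes of the 59 were called in every setting on all 4 libraries, and leaving out 1 library gave 0 to 8. There Hdac3 turned to 0.050 with a pseudocount of 5, 0.23 in edgeR and 0.22 in DESeq2, and Smarca5 to 0.033 in edgeR and 0.053 in DESeq2. Leaving out 1 library moved the knockdown difference across 0 for Chd1 (-0.44 to 0.61), Hdac3 (-0.86 to 0.82), Smarca2 (-0.026 to 0.16), Ino80 (-0.75 to 0.35), Smarca5 (-0.77 to 0.44) and Smarcad1 (-0.17 to 0.75), and the His difference for Chd4 (-1.24 to 0.38) and Hdac2 (-0.20 to 3.50). The labels do not say that a shared letter marks shared handling, and same-letter deviations correlated at 0.15 in the knockdown experiment and -0.014 in the pulldown; with the replicate letter as a block, 0 of the 59 genes (2 of all genes) and 14 of 56 were called, 13 of them shared; Hdac6 was the call lost (adjusted p 0.0544). Depth limited the pulldown more than the knockdown experiment. In the pulldown libraries 3 reads are 0.359 to 0.641 CPM, and in the knockdown and control libraries 0.108 to 0.165 CPM.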
